A study of Mus musculus with 4 samples.

Results

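RNA-seq of Lewis lung carcinoma (LLC) tumors was examined for 10 genes of neutrophils and inflammatory monocytes: Ly6c1, Ly6c2, Ly6g, S100a8, S100a9, Csf3r, Lcn2, Ngp, Plac8 and Clec4e. They were chosen by name, as markers of these cells, from the 47729 genes of the deposited expression table, with their values in these tumors already known, so that their own group difference, the call and its standard error included, is given as a description from which nothing is concluded. LLC is a mouse lung carcinoma line from the C57BL/6 strain, and the tumors were grown under the skin of the back of C57BL/6 mice and removed on day 5 after the graft. The LLC group was labelled wild type, and the LLC-Chem group came from cells carrying a pEFIN plasmid for murine chemerin, a secreted protein that attracts leukocytes. The label calls the encoded protein full size, while the study's methods describe a bioactive form that needs no proteolytic processing. The chemerin cells were clones picked after drug selection, each library was made from several tumors combined, and each group had 2 such pools, so that 4 libraries carry all values. Host mice had no other alteration named in the labels.

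Neutrophils are short-lived granulocytes that leave the bone marrow under the growth factor G-CSF and enter inflamed tissue along chemokine gradients. Their azurophil and specific granule proteins are made mostly in marrow precursors, whereas calprotectin, the complex of S100a8 and S100a9, is made in quantity by neutrophils and by newly arrived monocytes. Inflammatory monocytes carry Ly6C and the chemokine receptor Ccr2, leave the marrow under Ccl2, and can become macrophages in a tumor. Most of the 10 genes are shared by both cell types, and Ly6g is the one that is used to tell mouse neutrophils from monocytes.

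Rarres2, the gene of chemerin, was examined first because it checks the labels. It measured 102.2 and 98.2 RPM (reads after scaling each pool to a total of 1000000) in LLC tumors against 105.9 and 105.8 RPM in those labelled LLC-Chem, a log2 fold change of 0.08 ± 0.09 (SE, limma adjusted p = 0.541). The RNA of the transfected gene was thus only slightly higher in both LLC-Chem pools and was not called. It does not check the labels of the groups, on which the directions given here rest. Fitted library totals ran from 28470000 to 33990000 reads, so that 3 reads, taken as the smallest amount that could be shown, amounted to between 0.0883 and 0.105 RPM; this floor covers counting error only. Pools of the same group differed far beyond sampling noise, the chi-square per gene being 75.8 within the LLC group and 31.0 within the LLC-Chem group. The labels do not say how the pools differ, so that p-values measure only the spread between these pools, which may be technical. Differences are on the log2(RPM + 0.5) scale, which understates changes of weakly expressed genes, and come from limma fitted over the 13694 genes whose mean reached 1 RPM, with Benjamini-Hochberg adjustment and a threshold of 0.05.

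Of the 10 genes, 8 reached a mean of 1 RPM, and all of these 8 were lower in both pools labelled LLC-Chem than in either LLC pool. All 8 were also called lower, while 13.5% of all genes tested were called lower and 9.54% higher. Across all genes tested, 39.3% lay below both LLC pools in each LLC-Chem pool and 33.1% lay above them in each. Since the 10 genes were chosen with this contrast known, nothing is read from their count. The log2 fold changes of the 8 ran from -3.88 to -0.72 with a median of -2.09, against a median of -0.04 for all genes tested. Ly6g and Ngp were near the floor in every pool. In whole tumors, fewer cells of a type and less RNA per cell cannot be told apart, and this holds for every level given here.

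**Figure D1:**
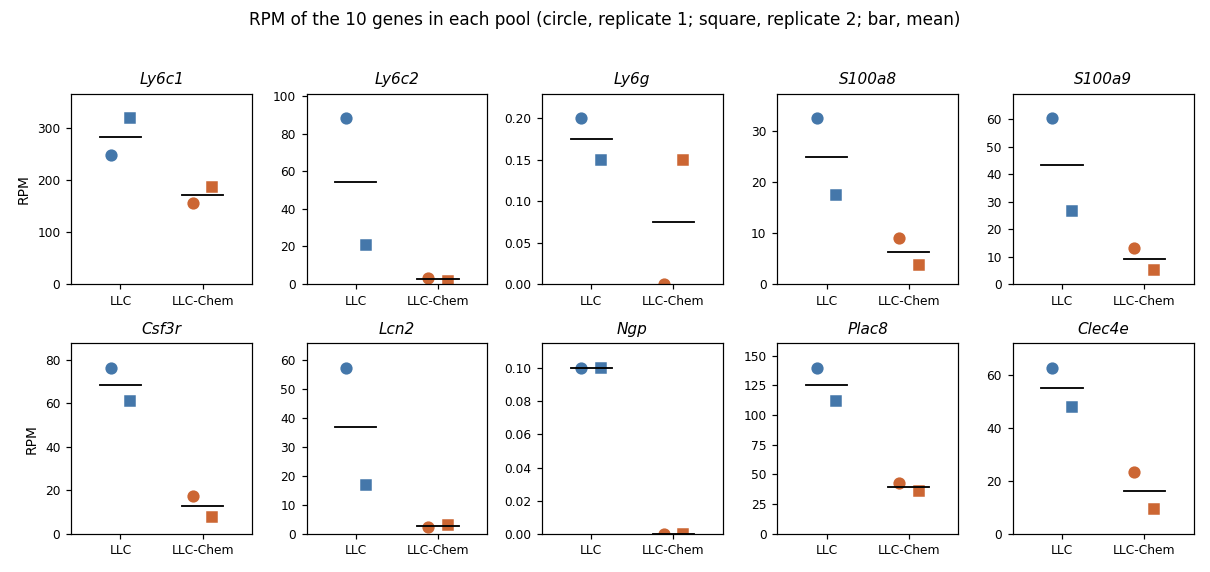
RPM of each of the 10 genes (vertical axes, linear from 0, a scale per gene) in the 2 LLC pools (blue) and the 2 LLC-Chem pools (orange), with circles for replicate 1, squares for replicate 2 and bars for the mean of 2 pools. In 8 panels both orange points lie below both blue points, while Ly6g and Ngp stay at or below 0.20 RPM, that is, at no more than 6 reads.

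Ly6g, the surface protein that defines mouse neutrophils, measured 0.20 and 0.15 RPM in LLC tumors against 0 and 0.15 RPM in LLC-Chem tumors. These are 6, 4, 0 and 4 reads, so that the groups overlapped and no fold is given. Ngp, a protein of the specific granules, was at 2 reads (0.10 RPM) in each LLC pool and at 0 in each LLC-Chem pool, which is under the floor throughout. The label of a neutrophil gene set therefore could not be checked with its defining gene at this depth. Of the genes of azurophil and specific granules, some were as low. Camp, an antimicrobial peptide of the specific granules, had no read in 3 pools and 0.05 RPM in the second LLC-Chem pool. Elane, neutrophil elastase, was at 0.05 RPM in the first LLC pool and at 0 elsewhere. Mpo, the peroxidase of azurophil granules, measured 0.10, 0.15, 0 and 0.05 RPM, and Ltf, lactoferrin, measured 0.30, 0.15, 0.10 and 0 RPM, each in the order LLC 1, LLC 2, LLC-Chem 1 and LLC-Chem 2. Other granule genes, Lcn2, Mmp8, Mmp9, Chil3, Prtn3, Pglyrp1 and Hp, passed the filter. Genes of mature neutrophils also differed in level. Cxcr1, Mrgpra2b and Retnlg were below the filter, whereas Cxcr2, the receptor for neutrophil chemokines, was at 11.7 and 5.55 RPM in LLC tumors against 2.90 and 0.75 RPM in LLC-Chem tumors.

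Ly6c1 and Ly6c2 are neighbouring copies that encode the 2 forms of the Ly6C surface protein. Ly6c2 is the form of inflammatory monocytes, while Ly6c1 is also made by endothelial cells and some lymphocytes. On GRCm38, Ly6c1 lies on chromosome 15 from 75044018 to 75048830 and Ly6c2 from 75108158 to 75111970, both on the minus strand. The promoter windows of the pair are printed with that of S100a8, a choice made with their values and matches known. They were searched for the letters GAGGAAGT, a form of the motif of PU.1, the factor that drives myeloid genes. For a gene with more than 1 start, the window farthest upstream was used. Each window runs from 250 bases before to 50 bases after a RefSeq start (GRCm38.p6), is written 5′ to 3′ in the direction of the gene, and has the motif, on either strand, in capitals. The windows are chr15:75048788-75049087 for Ly6c1, chr15:75111922-75112221 for Ly6c2, both on the minus strand, and chr3:90668821-90669120 on the plus strand for S100a8.
Ly6c1: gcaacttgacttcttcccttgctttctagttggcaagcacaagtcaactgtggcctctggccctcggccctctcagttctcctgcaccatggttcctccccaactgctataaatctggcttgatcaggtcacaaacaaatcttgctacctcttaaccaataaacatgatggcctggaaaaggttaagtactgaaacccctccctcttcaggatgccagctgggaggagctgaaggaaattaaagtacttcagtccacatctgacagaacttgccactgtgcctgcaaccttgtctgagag
Ly6c2: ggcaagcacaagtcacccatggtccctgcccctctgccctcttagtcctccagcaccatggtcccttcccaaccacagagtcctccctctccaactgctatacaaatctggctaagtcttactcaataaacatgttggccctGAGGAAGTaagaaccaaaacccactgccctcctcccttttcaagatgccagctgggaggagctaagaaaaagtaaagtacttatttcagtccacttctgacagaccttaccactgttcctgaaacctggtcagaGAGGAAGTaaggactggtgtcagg
S100a8: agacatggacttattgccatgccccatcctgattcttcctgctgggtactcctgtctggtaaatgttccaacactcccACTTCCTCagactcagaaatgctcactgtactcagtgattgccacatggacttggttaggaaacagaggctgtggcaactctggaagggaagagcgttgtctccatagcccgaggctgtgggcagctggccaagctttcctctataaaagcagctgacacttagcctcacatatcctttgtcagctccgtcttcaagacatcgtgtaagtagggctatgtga
The motif was found in the windows of Ly6c2 (2 matches, starting 108 bases before the start and 26 bases after it), S100a8 (1 match, 172 bases before the start, on the opposite strand) and Ly6g, that is, in 3 of the 10 genes, and in 3.25% of the 27025 promoter windows searched. Ly6c1 had no match in the window printed and 1 match in the window of its other start. The promoters of Ly6c1 and Ly6c2 matched at 78.2% of 266 aligned bases, and their longest transcripts at 88.8% of 795 aligned bases. The letters TTNNGNAA, a loose form of the motif of C/EBP factors, were in 8 of the 10 windows and in 40.8% of all windows. A TATA box written as TATAAA was in 5 of the 10 and in 14.2% of all. These matches describe letters only.

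Ly6c2 measured 88.2 and 20.9 RPM in LLC tumors against 3.30 and 1.80 RPM in LLC-Chem tumors, where it was covered by 112 and 60 reads. The LLC pools were both above the LLC-Chem pools but lay 4.21-fold apart from each other. The means were 54.6 ± 47.6 against 2.55 ± 1.06 RPM (SD, n = 2 per group), a 21.4-fold difference and the lowest log2 fold change of the 8 genes tested, at -3.88 ± 0.67 (SE). The fold rested in part on the first LLC pool, and the log2 fold change was -2.86 without that pool and -4.91 without the second LLC pool. Ly6c1 measured 248.5 and 317.8 RPM in LLC tumors against 156.0 and 187.0 RPM in LLC-Chem tumors. Its means of 283.1 ± 49.0 against 171.5 ± 22.0 RPM (SD, n = 2 per group) differed 1.65-fold, and its log2 fold change of -0.72 ± 0.16 (SE) was the smallest in size of the 8. Its higher LLC pool was the second, where that of Ly6c2 was the first. The ratio of Ly6c2 to Ly6c1 in RPM, which is not corrected for length and serves to compare pools, was 0.355 and 0.0659 in the LLC pools and 0.0211 and 0.00962 in the LLC-Chem pools. Of the 50-base words in the transcripts of Ly6c1, 32.8% also occur in other genes, 21.5% in Ly6c2, and 13.9% of the words of Ly6c2 occur in Ly6c1, so that part of the reads of either may be dropped or misplaced by counting. The level of Ly6c1 relative to Pecam1, an endothelial gene, was 3.49 and 6.88 in the LLC pools and 8.44 and 20.02 in the LLC-Chem pools.

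The neighbours of the pair on chromosome 15 were mostly silent. Ly6i, which lies in the same cluster and is counted among the monocyte genes, fell from 5.15 and 1.80 to 0.30 and 0.45 RPM (log2 fold change -2.05, limma adjusted p = 0.0334), and by edgeR the log2 fold change of Ly6i was -3.20. Of 10 other listed neighbours in the table, 3 reached a mean of 1 RPM, and 2 of these were called lower. Ly6a, which encodes the stem cell antigen Sca-1 and is also made by endothelial cells, fell from 686.9 and 698.1 to 313.1 and 404.5 RPM (log2 fold change -0.96, limma adjusted p = 0.0179). Gpihbp1, which holds lipoprotein lipase on capillary endothelium, fell from 8.10 and 5.15 to 1.65 and 0.30 RPM (log2 fold change -2.41, limma adjusted p = 0.0301). Ly6e, a widely expressed member, measured 1245 and 1071 RPM in LLC tumors against 792.2 and 829.6 RPM in LLC-Chem tumors and did not pass the test (limma adjusted p = 0.0556). The remaining 7 of the 10, among them Ly6d, Ly6h and Slurp1, stayed at or below 0.40 RPM in every pool.

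S100a8 and S100a9 encode the subunits of calprotectin, a metal-binding complex that starves microbes of zinc and manganese and acts as an alarm signal. On chromosome 3, S100a8 occupies 90668978 to 90670035 on the plus strand and S100a9 occupies 90692632 to 90695721 on the minus strand. S100a8 measured 32.4 and 17.3 RPM in LLC tumors against 8.95 and 3.65 RPM in LLC-Chem tumors, a 3.95-fold difference of the means (24.9 ± 10.6 against 6.30 ± 3.75 RPM, SD, n = 2) and a log2 fold change of -1.95 ± 0.47 (SE). S100a9 measured 60.3 and 26.4 RPM in LLC tumors against 13.2 and 5.00 RPM in LLC-Chem tumors, a 4.77-fold difference of the means (43.4 ± 24.0 against 9.09 ± 5.79 RPM, SD, n = 2) and a log2 fold change of -2.22 ± 0.54 (SE). Neither gene overlapped between the groups, and for both genes the first pool was the higher one within each group. The ratio of S100a8 to S100a9 varied less than either gene, at 0.537 and 0.656 in the LLC pools and 0.678 and 0.730 in the LLC-Chem pools. Without the second LLC-Chem pool the log2 fold changes were -1.36 for S100a8 and -1.56 for S100a9, and without the first LLC-Chem pool they were -2.55 and -2.88.

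The surrounding S100 genes lay in both directions. Of 11 neighbours of the S100 cluster, 9 were tested, of which 3 were called lower and 1 higher, with a median log2 fold change of 0.10, while edgeR called 0 lower and 1 higher (by limma 3 were lower at an unadjusted p under 0.05). S100a6, which binds calcium in many cell types, measured 1520 and 1401 RPM in LLC tumors against 1497 and 1606 RPM in LLC-Chem tumors (limma adjusted p = 0.693). S100a4, a regulator of cell motility, measured 25.7 and 18.2 RPM in LLC tumors against 21.04 and 25.7 RPM in LLC-Chem tumors (limma adjusted p = 0.731). S100a11, S100a13 and S100a16 were called lower, with log2 fold changes from -0.73 to -0.43, calls that 7, 7 and 8 of the 12 alternatives that kept all 4 pools did not make. S100a7a, an epithelial antimicrobial relative, rose from 0.55 and 0.25 to 6.45 and 9.49 RPM (log2 fold change 3.23, limma adjusted p = 0.0093). Among 6 genes of the receptors through which calprotectin signals, 1 was called. Cd14, the co-receptor for lipopolysaccharide, fell by 1.22 on the log2 scale (limma adjusted p = 0.0235). Tlr4 measured 41.0 and 45.2 RPM in LLC tumors against 50.02 and 45.4 RPM in LLC-Chem tumors (limma adjusted p = 0.379), and Myd88, its adaptor, measured between 55.0 and 72.7 RPM (limma adjusted p = 0.0507).

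Csf3r encodes the G-CSF receptor, which neutrophils keep from precursor to mature cell. It lies on chromosome 4 from 126024550 to 126044440 on the plus strand. Its levels were 76.1 and 61.0 RPM in LLC tumors against 17.5 and 7.75 RPM in LLC-Chem tumors. The means were 68.6 ± 10.7 against 12.6 ± 6.89 RPM (SD, n = 2 per group), a 5.43-fold difference and a log2 fold change of -2.49 ± 0.37 (SE). The LLC pools lay 1.25-fold apart and the LLC-Chem pools 2.26-fold apart, and the groups did not overlap. Of the 50-base words of its transcripts, 8.84% are shared with AC105061.2. The ligand, Csf3, was near the floor outside the first LLC pool, at 2.50 and 0.25 RPM in LLC tumors against 0.15 and 0.05 RPM in LLC-Chem tumors, and was below the filter. Of 9 genes of the CSF receptors and their signalling, 3 were called lower, namely Csf1r, the receptor of the macrophage growth factor, Csf2rb and Csf2rb2, subunits for GM-CSF and related cytokines, with log2 fold changes from -1.61 to -1.50. The call of Csf1r (limma adjusted p = 0.0490) was lost in 9 of the 12 alternatives that kept all 4 pools. Stat3, the factor that relays the G-CSF signal, measured between 196.3 and 227.0 RPM in the 4 pools (limma adjusted p = 0.359).

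Lcn2 encodes lipocalin 2, a protein of neutrophil specific granules and inflamed epithelium that binds bacterial siderophores and so withholds iron. It lies on chromosome 2 from 32384633 to 32388252 on the minus strand. Its levels were 57.1 and 16.9 RPM in LLC tumors against 2.40 and 3.15 RPM in LLC-Chem tumors, where 80 and 104 reads covered it. The means were 37.0 ± 28.5 against 2.77 ± 0.53 RPM (SD, n = 2 per group), a 13.3-fold difference and a log2 fold change of -3.28 ± 0.55 (SE). Like Ly6c2, it was much higher in the first LLC pool, by 3.38-fold, and its log2 fold change was -2.42 without that pool and -4.15 without the second. Among 6 genes of siderophore and iron handling, 4 were tested. Slc40a1, the iron exporter ferroportin, fell from 19.4 and 18.1 to 3.05 and 1.149 RPM (log2 fold change -2.99, limma adjusted p = 0.0130). Slc11a1, a metal transporter of phagocyte vesicles, fell by 1.73 on the log2 scale (limma adjusted p = 0.0177). Slc22a17, described as a receptor for lipocalin 2, rose from 5.45 and 11.04 to 17.9 and 19.3 RPM (log2 fold change 1.21, limma adjusted p = 0.0487), a call that 9 of the 12 alternatives that kept all 4 pools did not make. Tfrc, the transferrin receptor, measured between 65.3 and 140.0 RPM and overlapped between the groups (limma adjusted p = 0.974).

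Plac8 encodes a small cysteine-rich protein found in granulocytes, monocytes and some lymphocytes. It lies on chromosome 5 from 100553725 to 100572245 on the minus strand. Its levels were 139.4 and 111.9 RPM in LLC tumors against 43.0 and 35.8 RPM in LLC-Chem tumors. The means of 125.6 ± 19.4 against 39.4 ± 5.12 RPM (SD, n = 2 per group) differed 3.19-fold, and the log2 fold change of -1.66 had the smallest standard error of the 8 genes, 0.15. Leaving out any 1 pool moved it only between -1.82 and -1.50.

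Clec4e encodes Mincle, a C-type lectin of myeloid cells that senses glycolipids of mycobacteria and products of dying cells. It lies on chromosome 6 from 123281789 to 123289870 on the minus strand. Its levels were 62.5 and 47.9 RPM in LLC tumors against 23.4 and 9.24 RPM in LLC-Chem tumors. The means were 55.2 ± 10.3 against 16.3 ± 10 RPM (SD, n = 2 per group), a 3.38-fold difference and a log2 fold change of -1.86 ± 0.42 (SE), with values of -1.21 without the second LLC-Chem pool and -2.50 without the first. Of 11 relatives and signalling partners, 8 were called lower, with a median log2 fold change of -1.26. The lectins Clec4a1, Clec4a2, Clec4a3, Clec4n (Dectin-2) and Clec4d were among them, with log2 fold changes from -1.84 to -1.37. Clec4d, the partner lectin of Mincle, fell from 157.6 and 103.5 to 61.9 and 27.7 RPM (limma adjusted p = 0.0421), a call lost in 3 of the 12 alternatives that kept all 4 pools, edgeR among them. The ratio of Clec4e to Clec4d was 0.396 and 0.463 in the LLC pools and 0.378 and 0.333 in the LLC-Chem pools. Fcer1g, the signalling chain of both lectins, fell from 222.6 and 229.9 to 113.2 and 78.0 RPM (log2 fold change -1.26, limma adjusted p = 0.0152). The kinase Syk and the adaptor Card9 downstream of it were called lower too, whereas Bcl10, which acts with Card9, measured between 50.5 and 63.3 RPM (limma adjusted p = 0.204).

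To set the levels of different genes beside each other, RPM were divided by kilobases of exon. In the LLC group the order of the mean RPM per kilobase was Ly6c1 (168.8), S100a9 (83.1), Plac8 (78.9), S100a8 (35.8), Ly6c2 (19.9), Csf3r (19.0), Lcn2 (14.1) and Clec4e (11.1). Between neighbours in that order the pools overlapped, except between Ly6c1 and S100a9 and between Plac8 and S100a8. In the LLC-Chem group Ly6c1 again came first, at 102.3 RPM per kilobase, followed by Plac8, S100a9, S100a8, Csf3r, Clec4e, Lcn2 and, at 0.930, Ly6c2. There the neighbours that did not overlap were Ly6c1 and Plac8, S100a8 and Csf3r, and Clec4e and Lcn2. Within groups the pools were also uneven. The first LLC pool was the higher one for 7 of the 8 genes, against 57.9% of all genes tested, and the first LLC-Chem pool for 6 of the 8, against 51.6% of all.

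The pan-leukocyte genes moved with the members. Ptprc, which encodes the leukocyte antigen CD45, fell from 124.5 and 124.3 to 55.2 and 29.3 RPM (log2 fold change -1.62, limma adjusted p = 0.0218), and all 4 pan-leukocyte genes (Ptprc, Cd52, Coro1a and Laptm5) were called lower. Their summed level was 636.3 and 763.4 RPM in LLC tumors against 373.6 and 220.9 RPM in LLC-Chem tumors. The level of each member was therefore also divided by that of Ptprc in the same pool, an alternative added after the data were seen. Relative to Ptprc, 3 of the 8 genes lay lower in both LLC-Chem pools (1.95% of all genes tested were), 1 was higher in both (90.2% of all were) and 4 overlapped. Ly6c2 was 0.709 and 0.168 of Ptprc in the LLC pools and 0.0597 and 0.0614 in the LLC-Chem pools. Csf3r was 0.611 and 0.491 of Ptprc in the LLC pools and 0.317 and 0.265 in the LLC-Chem pools. Lcn2 was 0.459 and 0.136 of Ptprc against 0.0434 and 0.108. These 3 genes lay lower relative to Ptprc too, with Lcn2 nearly touching between the groups, a description from which nothing is concluded. Because Ptprc itself fell, most genes rose on this scale, so that the shares of all genes follow largely from the divisor. S100a8, S100a9, Plac8 and Clec4e overlapped between the groups on this scale. Plac8 was 1.12 and 0.900 of Ptprc in the LLC pools and 0.779 and 1.22 in the LLC-Chem pools. Ly6c1 was the 1 gene that was higher in both LLC-Chem pools, at 2.82 and 6.39 of Ptprc against 2.00 and 2.56. With the 4 pan-leukocyte genes summed as the divisor, Clec4e joined the genes below both LLC pools, so that 4 lay lower (3.42% of all genes), 1 was higher (85.1%) and 3 overlapped. Clec4e did so by a very narrow margin, at 0.0626 in the first LLC-Chem pool against 0.0628 in the second LLC pool.

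**Figure D2:**
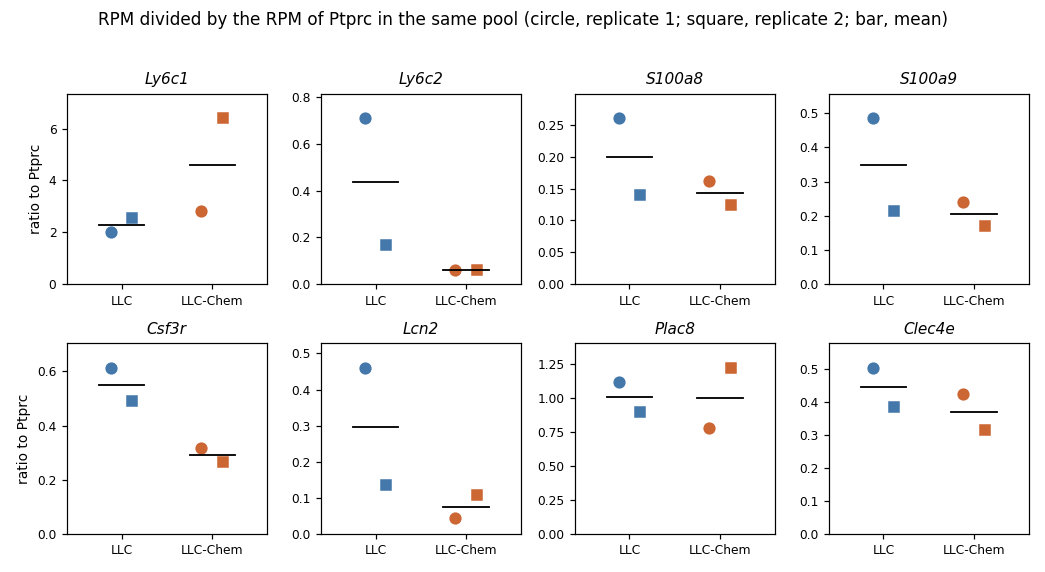
RPM of each of the 8 genes tested divided by the RPM of Ptprc in the same pool (vertical axes, linear from 0) in the LLC pools (blue) and the LLC-Chem pools (orange), with circles for replicate 1, squares for replicate 2 and bars for the mean of 2 pools. Ly6c2, Csf3r and Lcn2 keep both orange points below both blue points, Ly6c1 has both above, and the other 4 genes overlap.

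Genes related to the members by function or by position were grouped in 14 lists, chosen with earlier results of these data known. Of 120 such genes in the table, 95 were tested. Of these, 47 were called lower, 2 higher and 46 were not called, with a median log2 fold change of -1.08. Among all genes tested, 13.5% were called lower and 9.54% higher, and nothing is read from the counts of the lists. Of the neutrophil genes, Mmp8, the collagenase of the specific granules, fell from 13.8 and 11.5 to 0.55 and 0.40 RPM (log2 fold change -3.75, limma adjusted p = 0.00577), and Mmp9, the gelatinase, fell from 89.1 and 112.1 to 19.9 and 15.2 RPM (log2 fold change -2.49, limma adjusted p = 0.00665). Together with Pglyrp1, which binds bacterial peptidoglycan, they made 3 calls among 5 granule genes tested, where DESeq2 made 2. The call of Pglyrp1 (limma adjusted p = 0.0471) was lost in 5 of the 12 alternatives that kept all 4 pools. Hp, haptoglobin, was not called (limma adjusted p = 0.0781). Of the azurophil granule genes only Prtn3, proteinase 3, was high enough to be tested, and it was called lower, from 1.80 and 1.95 RPM to 0.70 and 0.55 RPM.

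Among 14 genes of neutrophil receptors and mature neutrophils, 11 were tested and limma called 5 lower. At an unadjusted p under 0.05 limma had 10 lower, while edgeR called 5 and DESeq2 called 9. Fpr1, the receptor for formyl peptides, fell from 25.4 and 25.5 to 4.80 and 3.65 RPM (log2 fold change -2.47, limma adjusted p = 0.00665). Fpr2, its relative, Fcgr4, an antibody receptor, Il1r2, the decoy receptor of interleukin-1, and Wfdc21 were the others, with log2 fold changes from -1.90 to -1.50, and the call of Wfdc21 was lost in 7 of the 12 alternatives that kept all 4 pools. Cxcr2 had a log2 fold change of -2.06 and missed the threshold (limma adjusted p = 0.0508), but 4 of the 12 alternatives that kept all 4 pools called it lower, with adjusted p from 0.00469 to 0.173 over the 12. When 1 pool was left out, its log2 fold change lay between -2.78 (LLC-Chem pool 1 left out) and -1.34 (LLC-Chem pool 2 left out). Padi4, the enzyme that citrullinates histones in neutrophils, was the exception, at 20.8 and 31.7 RPM in LLC tumors against 30.3 and 25.2 RPM in LLC-Chem tumors (limma adjusted p = 0.746). Of the genes of the NADPH oxidase, which makes the oxidative burst of phagocytes, Cybb and Cyba were called lower, and Ncf1 and Rac2 were not. Cybb, its catalytic subunit, had a log2 fold change of -1.87 (limma adjusted p = 0.0424), a call lost in 5 of the 12 alternatives that kept all 4 pools, edgeR among them, and the call of Cyba was lost in 4. Ncf1 had a log2 fold change of -0.67 (limma adjusted p = 0.124), which lay between -0.99 (LLC pool 1 left out) and -0.34 (LLC pool 2 left out) when 1 pool was missing.

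Of 10 genes of inflammatory monocytes, 8 were called lower (among them Ccr2, Ms4a4c, Ly6i, Fcgr1, Itgam, Il1b and Ms4a6c), with a median of -1.85 over the 10. Ccr2, the receptor for Ccl2, fell from 158.5 and 163.3 to 70.8 and 44.3 RPM (log2 fold change -1.51, limma adjusted p = 0.0152). Ms4a4c fell from 106.6 and 41.4 to 6.396 and 5.60 RPM (log2 fold change -3.37, limma adjusted p = 0.0130), and Il1b, interleukin-1 beta, fell by 2.89 on the log2 scale (limma adjusted p = 0.0265). F13a1, a transglutaminase of monocytes and macrophages, measured 360.7 and 530.9 RPM in LLC tumors against 765.7 and 462.8 RPM in LLC-Chem tumors and was not called (limma adjusted p = 0.296). Itgb2, the shared chain of the leukocyte integrins, was not called either. Of 6 genes of patrolling monocytes, Cx3cr1, Treml4, Spn and Itgal were called lower, with Itgal, an integrin chain, at a log2 fold change of -2.34 (limma adjusted p = 0.0187). Ace was not called, nor was Nr4a1, the factor these cells depend on, which overlapped between the groups with 14.6 to 20.6 RPM in LLC and 12.99 to 23.2 RPM in LLC-Chem tumors. Among 8 myeloid transcription factors, 6 were tested and 2 were called lower, Irf8, a factor of the monocyte lineage, by 1.80 on the log2 scale (limma adjusted p = 0.0158) and Spi1, which encodes PU.1, by 1.36 (limma adjusted p = 0.0469). The call of Spi1 was lost in 8 of the 12 alternatives that kept all 4 pools. Klf4 was not called (limma adjusted p = 0.221).

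**Figure D3:**
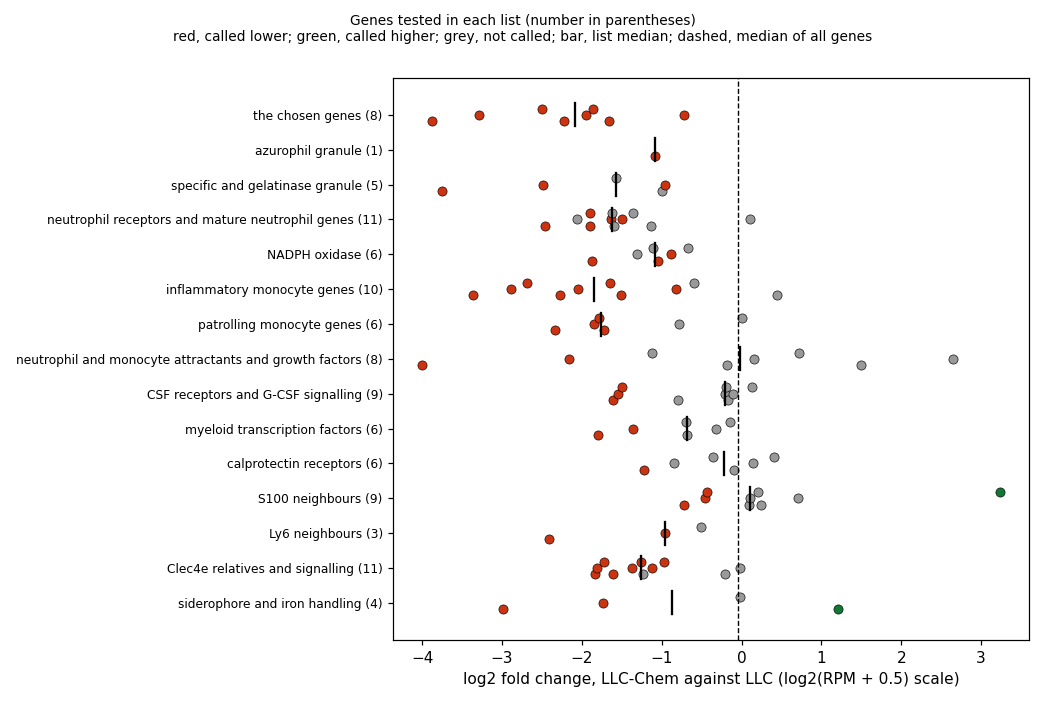
Log2 fold change of LLC-Chem against LLC (horizontal axis, log2(RPM + 0.5) scale) for each gene tested of the chosen genes and of the 14 related lists (rows, with the number tested), with red for genes called lower, green for genes called higher and grey for genes not called. Black bars are list medians and the dashed line is the median of all genes tested, -0.04; the chosen genes have the leftmost median, -2.09, and the attractants and the S100 neighbours have medians of -0.02 and 0.10.

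The ligands that draw these cells lay in both directions. Of 10 attractants and growth factors, 8 were tested, and limma called 2 lower and 0 higher (2 were higher at an unadjusted p under 0.05, with 0 higher calls by edgeR and 1 by DESeq2). The median log2 fold change was -0.02. Cxcl3 fell from 36.5 and 20.9 to 1.80 and 0.85 RPM (log2 fold change -4.00, limma adjusted p = 0.0093), and Cxcl2 fell from 46.3 and 15.1 to 5.90 and 5.197 RPM (log2 fold change -2.16, limma adjusted p = 0.0355). Leaving out LLC pool 1 gave Cxcl2 a log2 fold change of -1.37, and leaving out LLC pool 2 gave -2.96. Both bind Cxcr2. Cxcl1, another ligand of Cxcr2, measured 56.9 and 15.04 RPM in LLC tumors against 77.9 and 447.8 RPM in LLC-Chem tumors, a log2 fold change of 2.65 that did not pass the test (limma adjusted p = 0.0939) and that was 1.39 without the second LLC-Chem pool and 3.91 without the first. Ccl2, the ligand of Ccr2, measured 303.5 and 126.2 RPM in LLC tumors against 365.6 and 828.9 RPM in LLC-Chem tumors (log2 fold change 1.49, limma adjusted p = 0.0919), with log2 fold changes from 0.86 to 2.12 when 1 pool was left out. Both LLC-Chem pools exceeded both LLC pools for Cxcl1 and Ccl2, as they did for 33.1% of all genes tested. Their receptors Cxcr2 and Ccr2 were lower in both LLC-Chem pools, as were 39.3% of all. Cxcl1, Ccl2 and Cxcr2 were not called, and Cxcl2 and Cxcl3 lay in the same order as Cxcr2. Cxcl5, Ccl7 and Ccl12 overlapped between the groups.

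**Figure D4:**
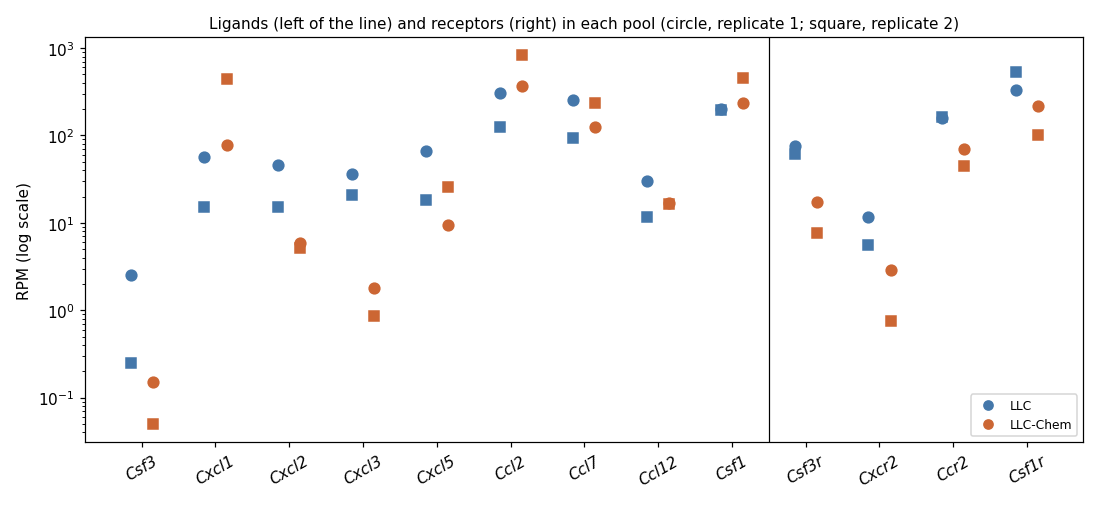
RPM (vertical axis, log scale) of attractants and growth factors (left of the line) and of receptors (right of it) in the LLC pools (blue) and the LLC-Chem pools (orange), with circles for replicate 1 and squares for replicate 2. For all 4 receptors, and for Csf3, Cxcl2 and Cxcl3, the orange points lie below the blue ones, whereas for Cxcl1, Ccl2 and Csf1 they lie above.

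The genes with the pattern most like that of Ly6c2 or S100a9 were found by the Euclidean distance of their centred log2(RPM + 0.5) values over the 4 pools. The pattern of Ly6c2 was nearest to those of Gzmb (distance 0.465), a cytotoxic granule enzyme of NK and T cells, Ms4a4c (0.809), Ifit1bl1 (0.825), Cxcl3 (0.900) and Lcn2 (0.985). That of S100a9 was nearest to those of Il7r (0.197), the interleukin-7 receptor, Cxcr2 (0.214), Serpina3g (0.215), B3gnt5 (0.279) and Sox18 (0.297), an endothelial transcription factor. The nearest genes thus included genes of lymphocytes and vessels beside myeloid ones.

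Markers of endothelial and NK cells also lay lower in both LLC-Chem pools, while those of several other cell types did so only in part or overlapped. The part of any of them in the results was not tested. All 7 endothelial genes were called lower, with summed levels of 242.5 and 162.4 RPM in LLC tumors against 55.2 and 30.03 RPM in LLC-Chem tumors. All 4 NK cell genes were called lower, with summed levels of 32.9 and 23.7 RPM against 2.15 and 0.5997 RPM. Of 8 macrophage genes 0 were called by limma (4 were lower at an unadjusted p under 0.05, 0 were called by edgeR and 4 were called lower by DESeq2), with a median log2 fold change of -0.64 and summed levels of 2362 and 2849 RPM against 2201 and 1438 RPM. Of 4 mast cell and basophil genes, 3 were tested and 2 called lower, of 6 dendritic cell genes, 4 were tested and 1 called lower, and of 6 T cell genes, 1 was tested and it was not called. The 3 B cell genes were below the filter. The epithelial genes, 3 of 6 tested, had 0 calls by limma and by edgeR (2 were lower at an unadjusted p under 0.05 and by DESeq2), with Krt5 and Krt14 at 0 in 3 pools and at 0.05 RPM in the second LLC pool. The 3 erythroid genes summed to 90.4 and 35.8 RPM in LLC tumors against 115.6 and 3.55 RPM in LLC-Chem tumors. The first LLC-Chem pool thus held the most erythroid RNA of the 4 pools and the second the least. The second LLC-Chem pool also had the lowest value of Ptprc and of 6 of the 8 members tested. The first was the higher LLC-Chem pool for 51.6% of all genes tested, and all 8 members lay below both LLC pools in it as well. A link between these levels was not tested.

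Calls at the adjusted threshold needed all 4 pools. When any 1 of the 4 pools was left out, limma called 0 genes of the whole table in either direction, against 1580 to 2823 lower and 998 to 2359 higher at an unadjusted p under 0.05, while all 8 members kept a negative log2 fold change.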

How the data were processed

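Total RNA of 4 pools of LLC tumors (2 LLC, 2 LLC-Chem, day 5) was sequenced with paired ends after TruSeq library preparation. According to the submitters' processing notes and the study's methods, the authors mapped reads with STAR to GRCm38.p4 (mm10), used HTSeq to count them on Ensembl genes, and deposited RPM for 47729 genes. Tool versions and the strand setting are not given in the sources used here, so reads of overlapping genes on opposite strands may not be told apart.

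Within a tolerance of 0.001 RPM, 100% of the nonzero deposited RPM values were whole multiples of 1 step per pool, and the steps of a pool fitted a scaling to 20000000 reads with rounding up. Library totals were fitted on that basis and tested on simulated data, and reads were recovered to within about 1 read. The pseudocount was 0.5 RPM and the filter a mean of 1 RPM. limma 3.58.1 (R 4.3.3, lmFit and eBayes with trend, two-sided, Benjamini-Hochberg over all genes tested) was used because RPM are not counts, and it was tested on simulated data. Those data had a fixed spread that was not taken from these pools, so the test cannot tell how calls hold at the spread seen here. A permutation test of 1 gene cannot go below p = 0.33 with 2 pools against 2. On the recovered reads, edgeR 4.0.16 called 1621 genes lower and 1566 higher by its quasi-likelihood test. DESeq2 1.42.0, other pseudocounts (0.1 and 1 RPM), filters, scalings, no trend and leaving out each pool were the other alternatives.

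The members and the lists of related genes and cell type markers were chosen with earlier results of these data known. Named are Rarres2, all members, the called genes of each related list and its most abundant gene that was not called, the members' direct partners, and the 5 nearest genes of Ly6c2 and S100a9. Values are given for at most about 4 genes of a list besides partners. Results for some further genes are not reported here. Rows with a repeated symbol (262) were matched by identifier, with the more abundant row kept. Positions and exon lengths were taken from GENCODE M21 (GRCm38), where 98.9% of the identifiers were found, and promoters from RefSeq (GRCm38.p6), in which all 10 members had an entry. Promoters and transcripts were aligned with Biopython 1.88, and plots were made with matplotlib 3.10.9. Replicate numbers are shared by number only and pair no animals, so no block was used.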

Additional observations from a re-analysis of the deposited data

How the results depend on the processing

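All 8 members tested kept a negative log2 fold change in each of the 16 alternatives run, leaving out a pool and the crossed pairing included. Of the called related or leukocyte genes, 45 were followed through the alternatives, and 45 of 45 kept their direction. Clec4a2, Syk, Card9, Itgam, Ms4a6c, Cd52, Coro1a and Laptm5 were not followed singly. Counts of calls moved more. Leaving out each of the 4 pools in turn gave 0 calls in every count (lowest 0, highest 0), since 1 group then has a single pool that is assumed to vary like the other group. Testing all 26260 genes with no filter on low values gave 0 genes lower (4003 at an unadjusted p under 0.05) and 1 higher (3394 unadjusted), with 0 members lower and 0 related genes lower or higher. eBayes without trend called 4 members, 31 related genes lower and 1 higher. Of the related genes, 1 was called higher in place of 2 with a pseudocount of 0.1 RPM, a filter of 0.3 RPM, TMM scaling, median-of-ratios scaling and edgeR, whose quasi-likelihood test called 37 related genes lower.

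The groups share replicate numbers, and the deviations of same-numbered pools from their group means correlated at -0.14. With the replicate block, limma called 1064 genes lower and 549 higher, 8 members lower, 37 related genes lower and 1 higher. The edgeR fit with the replicate block called 695 lower and 482 higher, 7 members, 31 related genes lower and 1 higher. Both fits called Cxcr2 lower. Of the 45 called genes followed through the alternatives, neither fit called Csf1r, Spi1, Wfdc21, Cybb, Cyba, Cx3cr1, Ly6i, Prtn3, Pglyrp1, S100a11, S100a13, S100a16 or Slc22a17. The edgeR fit also did not call Cd14, Clec4a3, Csf2rb or Treml4. With the pairing crossed, chosen after seeing the data, limma called 2320 genes lower and 1579 higher, 8 members, 58 related genes lower and 5 higher. Among named genes that were not called, the sign of the log2 fold change depended on the pools used. When 1 pool was left out it ran from -0.19 to 0.40 for Padi4 (negative without LLC pool 1, at -0.19, or LLC-Chem pool 1, at -0.02), from -0.14 to 0.35 for S100a4 (negative without LLC pool 2, at -0.14, or LLC-Chem pool 2, at -0.04), and from -0.57 to 0.53 for Tfrc (positive without LLC pool 1, at 0.53, or LLC-Chem pool 1, at 0.24). Tfrc was also at 0.029 with TMM scaling, 0.018 with median-of-ratios scaling and 0.026 with edgeR and the replicate block. Over the 12 alternatives that kept all pools, the calls of Prtn3, Cx3cr1, Ly6i, Treml4 and Csf2rb were lost in 3 each. Among called genes, leaving out LLC-Chem pool 2 brought the log2 fold change to -0.94 for Csf1r, -0.97 for Csf2rb, -0.80 for Spi1, -1.10 for Clec4n, -1.04 for Clec4d and -1.09 for Il1r2, leaving out LLC pool 2 brought S100a16 to -0.45, and leaving out LLC pool 1 brought Slc22a17 to 0.73. The cause was not tested. Depth limits Ly6g, Ngp, Camp, Elane and Mpo, which were within a few reads of the floor, where differences were not detectable.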
